A study of Mus musculus with 11 samples.

Results

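The mammalian circadian clock was followed through 10 of its genes in mouse neural stem cells (NSC) that were moved into 3 differentiation media. The genes are the transcriptional activators Arntl, Clock and Npas2, the repressors Per1, Per2, Per3, Cry1 and Cry2, the nuclear receptor Nr1d1 and the output factor Dbp. They were taken by gene symbol from a table of 37991 listed genes, and all 10 passed the filter on low values that left 13342 genes for testing (1 CPM or more in at least 2 libraries, where CPM is a read count scaled to the size of the library). The cells came from the frontal cortex of C57BL/6J embryos at E14.5 and were first grown in a proliferation medium. The NSC group held 3 libraries of cells collected at day 0. The other groups were collected at day 4, after plating on coated flasks and medium changes every 48 hours, and all their media contained GlutaMAX. Cells of the Astrocyte group (3 libraries) were kept in DMEM, a basal medium, to which serum (fetal bovine, 1%) and N-2 (1%) had been added. Cells of the Neuron group (3 libraries) were kept in Neurobasal medium with 2% B-27. Cells of the Oligodendrocyte group (2 libraries) were kept in the same Neurobasal and B-27 medium plus 30 ng/mL of the thyroid hormone T3. Poly(A) RNA was sequenced from each culture, and expression is given in CPM.

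In the textbook mechanism, Arntl (also called BMAL1) pairs with Clock or its relative Npas2, and the pair switches on genes whose promoters hold E-boxes. Per and Cry proteins build up in turn and block the pair, which closes the main loop about once a day. Nr1d1 (REV-ERB-alpha) represses Arntl and is opposed by the ROR receptors. Dbp, itself an E-box target, binds D-box sequences in output genes and in some clock genes. In tissues and in synchronized cultures the transcripts of these genes rise and fall over the day. The labels give the day of collection and not the hour. A group difference in the phase of the rhythm and a difference in the average level therefore cannot be told apart here. No culture was kept in proliferation medium until day 4, so time in culture and change of medium cannot be told apart either.

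The listed genes summed to 74.95 to 80.25% of the CPM total of each library, and the steps between the lowest values put the depth at an estimated 49.3 to 66.2 M reads. Nothing in the labels says whether the replicates came from separate embryos or cultures, so p-values measure the spread between these libraries, which may be technical. Mitochondrial genes took 4.54 to 8.91% of the CPM total, with the highest share in Neuron replicate 2. The summed level of 4 proliferation markers was 3446 to 3510 CPM in NSC, 81.5 to 86.1 CPM in Astrocyte, 45.3 to 65.7 CPM in Neuron and 120 to 121 CPM in Oligodendrocyte. Astrocyte markers (5 genes) summed to 1367 to 1427 CPM in NSC, 10829 to 12386 in Astrocyte, 5939 to 6714 in Neuron and 1737 to 1900 in Oligodendrocyte. Markers of mature oligodendrocytes (5 genes) summed to 67.6 to 75.5, 406 to 517, 2498 to 2673 and 2390 to 2731 CPM in the same order of groups, and 4 markers of oligodendrocyte precursors to 790 to 870, 208 to 244, 557 to 717 and 362 to 378 CPM. Neuronal markers, of which 4 of 5 were found, summed to 5.49 to 6.74, 145 to 200, 133 to 211 and 129 to 137 CPM. The label Neuron is thus not borne out by a higher neuronal sum than in the other day 4 groups. Nor did the mature oligodendrocyte sum separate Oligodendrocyte from Neuron, and the precursor sum was lower in Oligodendrocyte than in Neuron. Group names below therefore stand for the medium. Neural progenitor markers (5 genes) summed to 3402 to 3524, 3187 to 3562, 1544 to 1930 and 2142 to 2191 CPM. Microglial markers (5 genes) reached at most 0.28 CPM in sum in any library, mesenchymal markers (5 genes) at most 0.85 CPM and endothelial markers (4 genes) at most 7.29 CPM, with no marker at 0 in all libraries. In bulk RNA, fewer cells of a type and less RNA per cell cannot be told apart.

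Short promoter windows of the members differed in which of the searched clock elements they held. RefSeq start sites (assembly GRCm38.p6) gave 13 windows for 9 of the 10 members (all except Per2), each covering the 250 bases before a start, and both strands were searched for fixed letters. The E-box CACGTG, the site of the Arntl and Clock pair, stood in windows of Cry1 and Per1 and in 6.02% of 32851 windows of all genes. Its variant CACGTT, here called E-prime box and printed as AACGTG where it lies on the other strand, stood in windows of Cry1, Cry2 and Nr1d1 and in 3.85% of all windows. The D-box TTATGTAA, the site of Dbp and its relatives, was found in Per3 alone among the 9 members searched and in 0.819% of all windows. No member window held the palindromic D-box TTACGTAA (0.113% of all windows), the ROR and Nr1d1 element core TAGGTCA (2.23%), the cAMP response element TGACGTCA (1.55%) or a thyroid hormone response element made of AGGTCA repeated with 4 bases between (0.0152%). The single nuclear receptor site AGGTCA, which is also contained in the ROR core and in the thyroid hormone element, was found for Clock and Per1 and in 14% of all windows. The 5 windows that held an E-box, an E-prime box or a D-box are printed 5′ to 3′ on the strand of the gene, ending at the base before the start, with those matches in capitals. They are shown because they are the member windows with a clock element. Of their genes, Per3, Cry2, Nr1d1 and Per1 were called higher in all 3 media and Cry1 was not, while of the members searched without such a match Dbp, Npas2 and Arntl were called higher in all 3 media and Clock was not.
Per3 (chr4:151044666-151044915, minus strand, GRCm38.p6): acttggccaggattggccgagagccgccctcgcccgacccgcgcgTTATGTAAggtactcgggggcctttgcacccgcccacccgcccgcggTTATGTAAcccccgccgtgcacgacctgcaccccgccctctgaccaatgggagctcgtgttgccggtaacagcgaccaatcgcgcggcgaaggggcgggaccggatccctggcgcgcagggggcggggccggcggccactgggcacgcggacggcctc
Cry2 (chr2:92434070-92434319, minus strand, GRCm38.p6): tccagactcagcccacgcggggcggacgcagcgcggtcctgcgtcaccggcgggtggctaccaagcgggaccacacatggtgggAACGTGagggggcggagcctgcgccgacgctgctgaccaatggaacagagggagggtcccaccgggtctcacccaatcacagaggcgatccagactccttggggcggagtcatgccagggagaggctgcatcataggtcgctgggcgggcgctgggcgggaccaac
Nr1d1 (chr11:98775378-98775627, minus strand, GRCm38.p6): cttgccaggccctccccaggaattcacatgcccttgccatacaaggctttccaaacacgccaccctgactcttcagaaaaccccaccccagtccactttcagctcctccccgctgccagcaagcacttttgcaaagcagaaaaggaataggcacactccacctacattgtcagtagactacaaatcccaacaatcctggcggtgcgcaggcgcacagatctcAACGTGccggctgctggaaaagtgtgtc
Per1 (chr11:69098699-69098948, plus strand, GRCm38.p6): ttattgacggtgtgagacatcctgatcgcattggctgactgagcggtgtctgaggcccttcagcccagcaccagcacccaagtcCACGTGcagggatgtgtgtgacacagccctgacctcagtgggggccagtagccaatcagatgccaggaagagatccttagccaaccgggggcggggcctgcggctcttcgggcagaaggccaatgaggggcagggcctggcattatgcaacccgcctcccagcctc
Cry1 (chr10:85185055-85185304, minus strand, GRCm38.p6): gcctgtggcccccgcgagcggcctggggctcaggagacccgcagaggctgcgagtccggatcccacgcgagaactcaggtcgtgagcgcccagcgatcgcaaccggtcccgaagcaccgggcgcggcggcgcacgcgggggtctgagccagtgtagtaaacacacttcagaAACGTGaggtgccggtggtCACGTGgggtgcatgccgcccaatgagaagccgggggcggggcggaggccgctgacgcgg
In the Per3 window the first bases of the D-boxes lay 205 and 158 bases before the start. The E-prime box of Cry2 began 166 bases before its start and that of Nr1d1 28 bases before its start. The E-box of Per1 began 166 bases before the start, and in Cry1 the E-prime box began 79 and the E-box 60 bases before the start. A match is a description of these letters and not evidence of binding in these cells. The search covered 250 bases and fixed letters only, so a missing match does not show that a gene lacks the element. Dbp, named above as an E-box target, had no match in its window.

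Dbp, a transcription factor whose output of the clock includes many metabolic genes, differed more from NSC than any other member on the log2(CPM + 1) scale, while the ratio of CPM was larger for the scarce Npas2 in Neuron and Oligodendrocyte. It lies at chr7:52960458-52965525 in mm9, the build of the deposited table (NCBIM37). Its level was 5.4, 6.14 and 6.89 CPM in the 3 NSC libraries. In Astrocyte it was 77.11, 76.98 and 78.58 CPM, in Neuron 23.97, 30.27 and 22.75 CPM, and in Oligodendrocyte 78.74 and 75.17 CPM. The NSC libraries were lowest, the Neuron libraries were intermediate, and the Astrocyte and Oligodendrocyte libraries were highest and overlapped each other. On the log2(CPM + 1) scale used for all fold changes, Dbp rose against NSC by 3.46 (SE 0.099, adjusted p = 9.11e-13) in Astrocyte, by 1.89 (SE 0.099, adjusted p = 5.10e-10) in Neuron and by 3.45 (SE 0.111, adjusted p = 4.39e-12) in Oligodendrocyte, in limma's moderated test with Benjamini-Hochberg adjustment over all 13342 genes. These correspond to 12.6-, 4.18- and 12.5-fold higher mean CPM. Dbp was also higher in Oligodendrocyte than in Neuron by 1.56 (SE 0.111, adjusted p = 5.67e-08), a 3-fold difference between media whose listed components differ by the added T3. The difference between Oligodendrocyte and Astrocyte was -0.01 with a 95% confidence interval from -0.25 to 0.23. The last 689 bases of the Dbp span, 13.6% of it, overlap Sphk2 on the opposite strand, and Sphk2 ranged from 15.04 to 27.26 CPM over all libraries and rose by 0.58, 0.25 and 0.77 in Astrocyte, Neuron and Oligodendrocyte. Whether reads were counted by strand is not given in the sources used here, so reads of the shared stretch cannot be assigned to one gene with certainty.

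**Figure D1:**
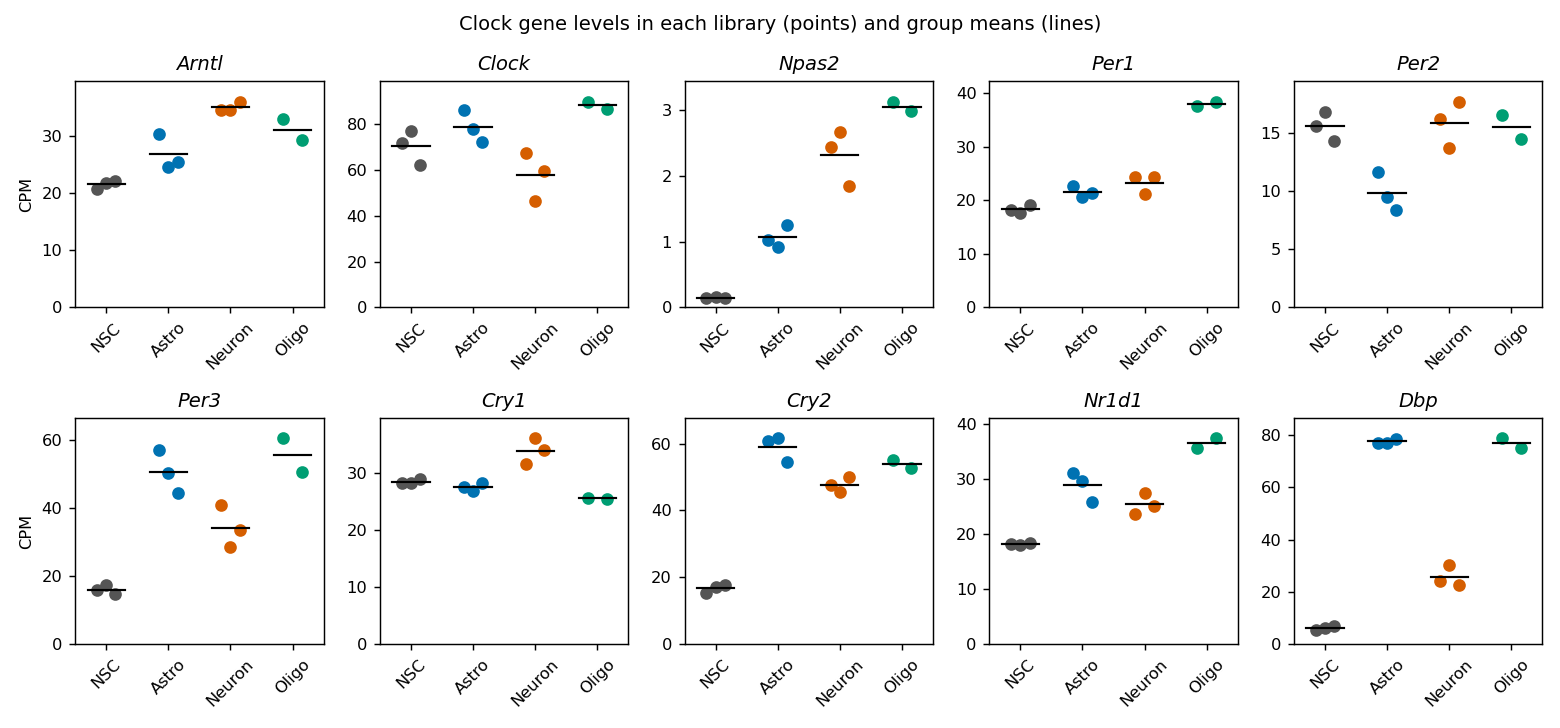
CPM of the 10 clock genes in each of the 11 libraries (points), with the mean of each group as a black line and a linear axis from 0 in each panel. Dbp, Per3, Cry2 and Npas2 sit apart from NSC in every day 4 library, while the Per2 and Cry1 values of most groups lie close together.

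Among the activators, Arntl rose in all 3 media, Npas2 rose from a very low level, and Clock differed little from NSC. Arntl (chr7:120350979-120457636) encodes the obligate partner in the activating pair. Its level was 20.62, 21.72 and 22.07 CPM in NSC, 30.34, 24.49 and 25.39 CPM in Astrocyte, 34.52, 34.5 and 35.94 CPM in Neuron, and 32.91 and 29.16 CPM in Oligodendrocyte. All 8 day 4 libraries lay above the NSC libraries, and the Neuron libraries were the highest. The rise was 0.30 (SE 0.081, adjusted p = 0.00374) in Astrocyte, 0.68 (SE 0.081, adjusted p = 2.99e-06) in Neuron and 0.51 (SE 0.091, adjusted p = 0.00015) in Oligodendrocyte. The Astrocyte call was lost when libraries were scaled by the median of gene ratios (0.13, adjusted p = 0.111). Arntl was lower in Astrocyte than in Neuron by a log2 difference of -0.38 (SE 0.081, adjusted p = 0.00109).

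Clock (chr5:76639992-76733817), the DNA-binding partner of Arntl, was expressed at 71.96, 76.95 and 62.44 CPM in NSC. It measured 86.5, 78.02 and 72.47 CPM in Astrocyte, 67.74, 46.76 and 59.75 CPM in Neuron, and 90 and 86.92 CPM in Oligodendrocyte. The Neuron libraries spanned a wide range that overlapped NSC, and Neuron replicate 2 was the lowest of all. Clock was lower in Neuron than in NSC by a log2 difference of -0.29 (SE 0.117, adjusted p = 0.0365), and Oligodendrocyte exceeded NSC by 0.33 (SE 0.131, adjusted p = 0.0329). Neither call was stable: the first was lost in 7 of 21 alternative settings, among them leaving out Neuron replicate 2 or 3 or NSC replicate 1 or 2, and the second in 9 of 21, among them all 3 other scalings. The direct difference between Oligodendrocyte and Neuron was 0.61 (SE 0.131, adjusted p = 0.000994), and it passed in all 21 alternatives. Clock was also higher in Astrocyte than in Neuron by 0.45 (SE 0.117, adjusted p = 0.00444).

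Npas2 (chr1:39250576-39420079), which can stand in for Clock in the forebrain, was nearly silent in NSC at 0.14, 0.16 and 0.15 CPM. It reached 1.03, 0.92 and 1.25 CPM in Astrocyte, 2.44, 2.67 and 1.84 CPM in Neuron, and 3.13 and 2.98 CPM in Oligodendrocyte. The 4 groups did not overlap. A single read was worth an estimated 0.0151 to 0.0203 CPM, so the NSC values rest on few reads. Npas2 passed the filter on low values only through day 4 libraries, as no NSC library reached 1 CPM. Its calls against NSC are therefore not independent of that selection, though they were kept in the fit without the filter. The ratio of mean CPM to NSC was 7.11 in Astrocyte, 15.4 in Neuron and 20.4 in Oligodendrocyte, whereas the fitted log2(CPM + 1) differences of 0.84, 1.52 and 1.82 understate the change of so low a gene (adjusted p = 3.68e-06, 7.53e-09 and 4.41e-09). With a pseudocount of 0.1 the same differences were 2.21, 3.26 and 3.66. The Astrocyte call was lost under quantile normalization (0.23, adjusted p = 0.0585). The difference of 0.30 between Oligodendrocyte and Neuron (adjusted p = 0.0343) was lost in 10 of 21 alternatives.

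The 3 Per genes, which encode partners of the Cry proteins in the repressor complex, moved in 3 different ways. Per1 (chr11:68908719-68923462) was at 18.1, 17.69 and 19.07 CPM in NSC, 22.75, 20.68 and 21.45 CPM in Astrocyte, 24.39, 21.16 and 24.35 CPM in Neuron, and 37.56 and 38.42 CPM in Oligodendrocyte. Both Oligodendrocyte libraries stood well above all others. Per1 rose by 1.02 (SE 0.080, adjusted p = 4.51e-08) in Oligodendrocyte against NSC and was 0.68 higher there than in Neuron (SE 0.080, adjusted p = 5.75e-06) and 0.79 higher than in Astrocyte (SE 0.080, adjusted p = 2.93e-06). The rise in Neuron was 0.33 (SE 0.071, adjusted p = 0.000708). The rise in Astrocyte, 0.23 (SE 0.071, adjusted p = 0.00874), was lost under each of the 3 other scalings, with adjusted p up to 0.383.

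Per2 (chr1:93312561-93355907), a core repressor whose loss disrupts rhythms in mice, was called lower in the Astrocyte medium. It was at 15.64, 16.82 and 14.3 CPM in NSC, 11.66, 9.55 and 8.41 CPM in Astrocyte, 16.21, 13.71 and 17.72 CPM in Neuron, and 16.57 and 14.47 CPM in Oligodendrocyte. The Astrocyte libraries lay below all 8 others, which overlapped. Per2 fell by 0.62 in Astrocyte against NSC (SE 0.117, adjusted p = 0.000249) and was 0.61 higher in Oligodendrocyte than in Astrocyte (SE 0.131, adjusted p = 0.00162). Against NSC the difference was 0.02 in Neuron (95% confidence interval -0.23 to 0.27) and -0.01 in Oligodendrocyte (-0.29 to 0.28).

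Per3 (chr4:150377761-150418774), a weaker repressor whose printed promoter window held a pair of D-boxes, rose in every medium. Its levels were 15.96, 17.45 and 14.73 CPM in NSC, 56.99, 50.11 and 44.43 CPM in Astrocyte, 40.85, 28.47 and 33.43 CPM in Neuron, and 60.44 and 50.55 CPM in Oligodendrocyte. No day 4 library overlapped NSC, and every Neuron library lay below every Astrocyte and Oligodendrocyte library. Per3 rose by 1.59 (SE 0.124, adjusted p = 3.43e-08) in Astrocyte, by 1.04 (SE 0.124, adjusted p = 3.24e-06) in Neuron and by 1.73 (SE 0.139, adjusted p = 5.87e-08) in Oligodendrocyte. It was higher in Oligodendrocyte than in Neuron by 0.69 (SE 0.139, adjusted p = 0.000662) and higher in Astrocyte than in Neuron by 0.55 (SE 0.124, adjusted p = 0.00163). On the log2(CPM + 1) scale Per3 also varied more between replicates than the other members, with a residual SD of 0.189.

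The Cry genes, which encode the strongest repressors of the Arntl and Clock pair, separated from each other. Cry1 (chr10:84594447-84647799) kept a narrow range, at 28.18, 28.17 and 28.93 CPM in NSC, 27.52, 26.9 and 28.26 CPM in Astrocyte, 31.56, 36.09 and 34.02 CPM in Neuron, and 25.69 and 25.5 CPM in Oligodendrocyte. The Neuron libraries were the highest and the Oligodendrocyte libraries the lowest. Cry1 rose by 0.24 (SE 0.062, adjusted p = 0.00253) in Neuron, and Oligodendrocyte lay below Neuron by a log2 difference of -0.39 (SE 0.070, adjusted p = 0.000256). Against NSC the differences were -0.04 in Astrocyte (adjusted p = 0.526) and -0.15 in Oligodendrocyte (adjusted p = 0.0691), and the latter passed the threshold as a decrease under each of the 3 other scalings. The Astrocyte difference passed as a decrease with median-of-ratios scaling (-0.22, adjusted p = 0.00756).

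Cry2 (chr2:92243803-92274200) was at 15.35, 16.98 and 17.74 CPM in NSC. It reached 60.8, 61.56 and 54.47 CPM in Astrocyte, 47.73, 45.45 and 49.98 CPM in Neuron, and 55.06 and 52.72 CPM in Oligodendrocyte. No day 4 library overlapped NSC. The rise was 1.76 (SE 0.071, adjusted p = 3.05e-11) in Astrocyte, 1.46 (SE 0.071, adjusted p = 2.37e-10) in Neuron and 1.64 (SE 0.080, adjusted p = 2.90e-10) in Oligodendrocyte. Cry2 was higher in Astrocyte than in Neuron by 0.30 (SE 0.071, adjusted p = 0.00257). The difference between Oligodendrocyte and Neuron, 0.17 with a 95% confidence interval from 0.00 to 0.35, did not pass (adjusted p = 0.0708). An antisense gene, D930015M05Rik, overlaps 77% of the Cry2 span and was listed at 0.1 CPM or less in all libraries.

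Nr1d1 (chr11:98629246-98636647), the heme-sensing repressor of the second loop, was at 18.13, 17.9 and 18.4 CPM in NSC, 31.12, 29.59 and 25.78 CPM in Astrocyte, 23.58, 27.42 and 25.02 CPM in Neuron, and 35.64 and 37.33 CPM in Oligodendrocyte. All day 4 libraries exceeded NSC, and the Oligodendrocyte libraries exceeded all others. Nr1d1 rose by 0.64 (SE 0.078, adjusted p = 4.06e-06) in Astrocyte, by 0.46 (SE 0.078, adjusted p = 9.71e-05) in Neuron and by 0.97 (SE 0.087, adjusted p = 1.92e-07) in Oligodendrocyte. It was 0.51 higher in Oligodendrocyte than in Neuron (SE 0.087, adjusted p = 0.000177). The difference of 0.33 between Oligodendrocyte and Astrocyte (adjusted p = 0.00607) was lost without Oligodendrocyte replicate 2 (adjusted p = 0.0604). Nr1d1 shares 1075 bases, 14.5% of its span, with the opposite-strand gene Thra, which encodes thyroid hormone receptor alpha. Thra ranged from 73.57 to 417.11 CPM and rose by 1.94, 2.37 and 2.28 in Astrocyte, Neuron and Oligodendrocyte (adjusted p = 1.03e-12, 1.78e-13 and 1.13e-12). The Nr1d1 values are uncertain to the extent that reads of the shared stretch were counted without strand.

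Against NSC, 8 of the 10 members were called in Astrocyte (7 higher, 1 lower), where 83.6% of all tested genes were called, 48.0% higher and 35.6% lower. In Neuron 9 members were called (8 higher, 1 lower), beside 83.1% of all genes, 43.5% higher and 39.6% lower. In Oligodendrocyte 8 members were called, all of them higher, beside 80.2% of all genes and 48.1% higher. The share of members called in either direction is near the background in all 3 comparisons. Libraries of the groups did not overlap for 8, 8 and 9 members in the same order, where 86.2%, 83.2% and 89.3% of all genes did not. The median log2 fold change of the members was 0.47, 0.57 and 0.99 in the same order, and that of all tested genes was 0.15, 0.06 and 0.19. In Astrocyte the member median was 0.29 with median-of-ratios scaling (5 higher, 2 lower) and 0.22 under quantile normalization (5 higher, 1 lower). At a log2(CPM + 1) difference of 1 or more, called 2-fold here, 3 members were higher in Astrocyte (21.4% of all genes), 4 in Neuron (17.9%) and 5 in Oligodendrocyte (21.2%). That scale leaves out Npas2 in Astrocyte and Nr1d1 in Oligodendrocyte, whose CPM ratios were 7.11 and 2.01. In all, 7 members, that is all except Clock, Per2 and Cry1, were called higher in all 3 media, as were 34.4% of all tested genes. Npas2, which is among the 7 and in the 2-fold counts of Neuron and Oligodendrocyte, passed the filter only through day 4 libraries. Of the 7 members, the calls of Dbp, Cry2, Per3 and Nr1d1 held in all 3 media under all 21 alternatives.

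**Figure D2:**
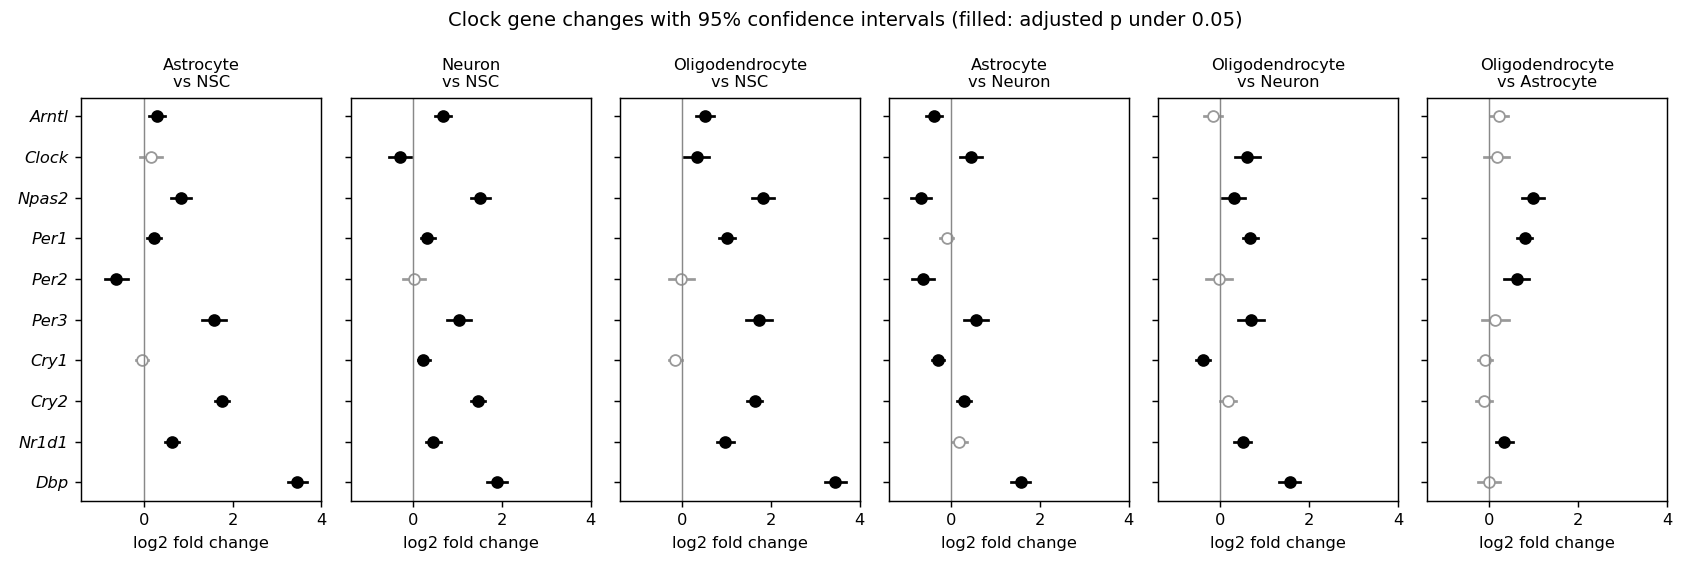
Log2 fold change (difference of mean log2(CPM + 1), x axis) of each clock gene in the 6 comparisons, with 95% confidence intervals and filled points for an adjusted p under 0.05. Dbp reaches 3.46 and 3.45 in Astrocyte and Oligodendrocyte against NSC but 1.89 in Neuron, and Per2 in Astrocyte lies below NSC at -0.62.

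Between the day 4 groups, the comparison of the Neurobasal and B-27 medium with and without added T3 gave calls in both directions. In Oligodendrocyte against Neuron 7 members were called, 6 higher (Dbp, Per3, Per1, Clock, Nr1d1 and Npas2) and 1 lower (Cry1), where 67.5% of all genes were called, 43.9% higher and 23.6% lower. Libraries did not overlap for 9 members and for 75.7% of all genes. The median member difference was 0.40, beside 0.15 over all tested genes, and it fell within 0.20 (quantile normalization) to 0.37 (rescaled to the listed genes) under the other scalings. Under each of the 3 other scalings 5 members were higher and 2 lower, as Npas2 lost its call and Arntl was called lower. Dbp was the one member at 2-fold or more higher, as were 8.96% of all genes. In Astrocyte against Neuron 8 members were called, 4 higher (Dbp, Per3, Clock and Cry2) and 4 lower (Npas2, Per2, Arntl and Cry1), beside 62.2% of all genes (40.3% higher, 22.0% lower). There the medians were 0.04 for the members (-0.11 to -0.01 under the 3 other scalings) and 0.10 for all genes, libraries did not overlap for 8 members and for 63.0% of all genes, and Dbp alone was at 2-fold or more higher (6.39% of all genes). In Oligodendrocyte against Astrocyte 4 members were called, all higher (Npas2, Per1, Per2 and Nr1d1), beside 52.2% of all genes and 28.7% higher, and libraries did not overlap for 6 members and for 71.7% of all genes. The comparisons that share a group share its libraries and are not independent.

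Per kilobase of exon, which allows genes to be set beside each other, Cry1 had the highest mean level of the members in NSC at 9.39 CPM per kilobase. Clock, Arntl and Nr1d1 followed at 7.1, 6.95 and 6.67 CPM per kilobase, and their ranges over the 3 libraries overlapped. Cry2, Dbp and Per1 came next at 3.84, 3.34 and 3.25 CPM per kilobase, where the range of Dbp overlapped those of Cry2 and Per1 and every Cry2 library lay above every Per1 library. Per2 and Per3, both at 2.67 CPM per kilobase, overlapped. Npas2 was last at 0.0332 CPM per kilobase. In Astrocyte and Oligodendrocyte Dbp led with 42.2 and 41.9 CPM per kilobase. The next member was Cry2 in Astrocyte with 13.6 and Nr1d1 in Oligodendrocyte with 13.4 CPM per kilobase. In Neuron Dbp had 14 CPM per kilobase, and Arntl, Cry1 and Cry2 overlapped at 11.3, 11.2 and 11. Cry1 was thus above Cry2 in NSC, level with it in Neuron and below it in Astrocyte (9.11 against 13.6) and Oligodendrocyte (8.46 against 12.4 CPM per kilobase). Per2 was the lowest member after Npas2 in each day 4 group, at 1.69 to 2.72 CPM per kilobase.

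Ratios of members within a library do not depend on how libraries are scaled against each other, apart from the effect of the added 1, which is large for Npas2. They are given as differences of log2(CPM + 1), which are not corrected for gene length, so that changes between groups can be read from them and not which gene is more abundant. The log2 ratio of Dbp to Arntl lay between -1.76 and -1.55 in NSC, between 1.32 and 1.61 in Astrocyte, between -0.64 and -0.18 in Neuron and between 1.23 and 1.34 in Oligodendrocyte. The output factor thus gained on the activator in every medium, and least in Neuron. The log2 ratio of Cry1 to Cry2 was 0.68 to 0.84 in NSC, -1.16 to -0.92 in Astrocyte, -0.58 to -0.32 in Neuron and -1.07 to -1.02 in Oligodendrocyte. The balance moved toward Cry2 in each medium. The ratio of Nr1d1 to Arntl, the gene that Nr1d1 represses, was -0.27 to -0.18 in NSC, 0.02 to 0.26 in Astrocyte, -0.53 to -0.32 in Neuron and 0.11 to 0.35 in Oligodendrocyte. It was higher than in NSC in the Astrocyte and Oligodendrocyte libraries and lower than in NSC in the Neuron libraries. The ratio of Per1 to Per2 was 0.07 to 0.39 in NSC, 0.91 to 1.25 in Astrocyte, 0.44 to 0.59 in Neuron and 1.13 to 1.35 in Oligodendrocyte. Per2 against Arntl was -0.59 to -0.35 in NSC and lower in all day 4 libraries, from -1.49 to -0.95. Npas2 against Clock was -6.07 to -5.79 in NSC, -5.43 to -5.03 in Astrocyte, -4.42 to -3.70 in Neuron and -4.47 to -4.46 in Oligodendrocyte. It was higher in every day 4 library than in NSC. The ratios are a description, and their differences between groups were not tested.

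**Figure D3:**
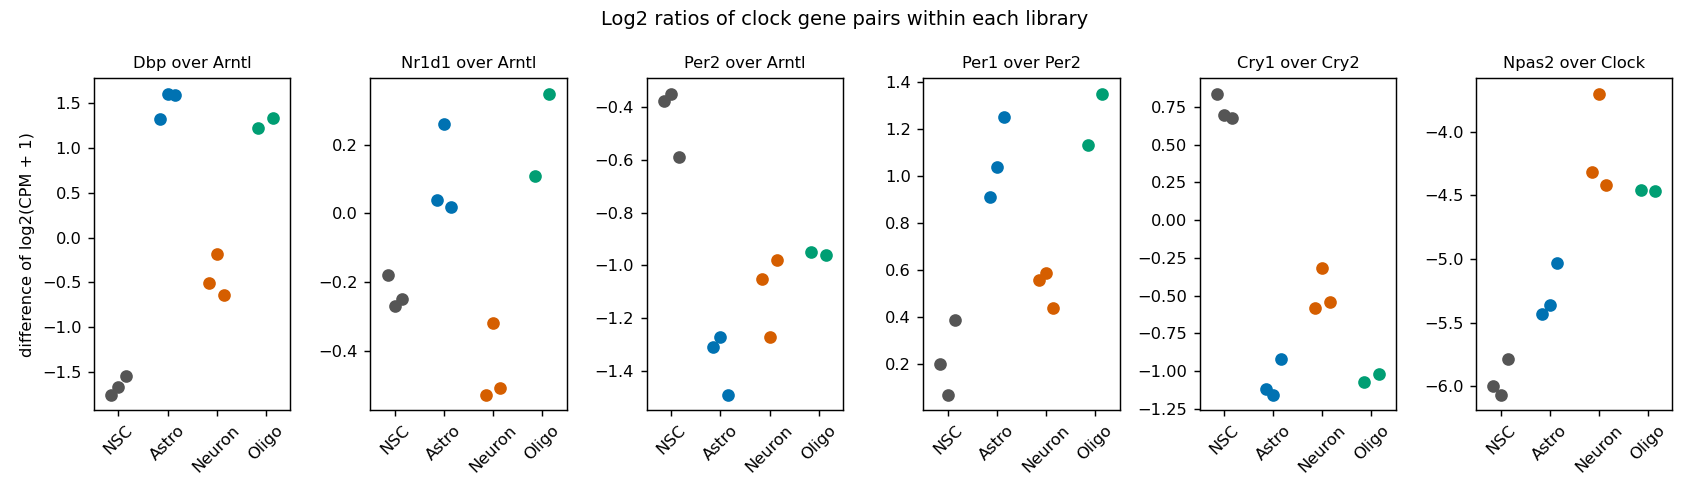
Log2 ratio of 6 pairs of clock genes in each library (points), as the difference of their log2(CPM + 1) values, with a linear axis of its own in each panel. In the panel of Dbp over Arntl the Neuron libraries (-0.64 to -0.18) lie between NSC and the other day 4 media, and in that of Cry1 over Cry2 all day 4 libraries lie below NSC.

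Spread between replicates differed between the members. The SE of a fold change also depends on the size of the groups and on the moderation in limma, so it does not follow from this spread alone. The residual SD of log2(CPM + 1) was 0.0549 for Cry1, 0.0758 for Per1, 0.0841 for Cry2, 0.0941 for Nr1d1 and 0.102 for Arntl, below the median of 0.106 over all tested genes. Npas2 (0.121), Dbp (0.14), Per2 (0.168), Clock (0.178) and Per3 (0.189) were above it. For the scarce Npas2 the added 1 lowers this SD.

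Other transcription factors of the loop moved in both directions. Of 11 such genes, 6 rose and 2 fell in Astrocyte, 6 rose and 3 fell in Neuron, and 6 rose and 2 fell in Oligodendrocyte, with median log2 fold changes of 0.21, 0.61 and 0.43. With libraries scaled by the median of gene ratios the counts were 5 and 5, 6 and 4, and 5 and 4. Under quantile normalization the Oligodendrocyte count was 4 and 4, and its median turned to -0.04. On CPM as deposited, 6407 of all 13342 tested genes rose and 4752 fell in Astrocyte. In Neuron 5809 rose and 5283 fell, and in Oligodendrocyte 6412 rose and 4294 fell. The lists below are to be read beside the same counts. Tef, a D-box factor of the same family as Dbp, rose by 1.16, 0.71 and 1.47 in Astrocyte, Neuron and Oligodendrocyte (adjusted p = 4.19e-10, 8.68e-08 and 1.54e-10). Like Dbp it was lowest in Neuron among the media, at 116.06, 108.64 and 120.57 CPM, and stood 0.76 above that level in Oligodendrocyte (adjusted p = 4.52e-07). Hlf, the third member of that family, went another way: it rose by 0.61 in Neuron (adjusted p = 6.53e-06), and the difference of Oligodendrocyte from Neuron was -0.86 (adjusted p = 1.67e-06). Nr1d2, the paralog of Nr1d1, rose by 1.04, 0.63 and 0.79. Rora, a receptor that competes with Nr1d1 at ROR elements, rose by 1.67, 2.04 and 1.48, and Bhlhe41, a repressor that binds E-boxes, by 2.45, 2.40 and 2.04. Gm129, the older symbol of the Clock and Arntl repressor Ciart, fell by 0.85 in Astrocyte and by 1.22 in Neuron (adjusted p = 4.86e-06 and 1.11e-07). The changes named for Tef, Hlf, Nr1d2, Rora, Bhlhe41 and Gm129 kept direction and call in all 21 alternatives.

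The next list held 11 genes of clock protein kinases, ubiquitin ligases and partners. Of these, 5 rose and 4 fell in Astrocyte, 4 rose and 3 fell in Neuron, and 5 rose and 4 fell in Oligodendrocyte. Their medians were 0.02, -0.02 and 0.19, near those of all genes, and with libraries scaled by the median of gene ratios 3 rose and 6 fell in Astrocyte, and 3 rose and 4 fell in Oligodendrocyte. Csnk1e, a kinase that marks Per proteins, was lower in Astrocyte by a log2 difference of -0.60 (adjusted p = 7.93e-07) and in Oligodendrocyte by -0.43 (adjusted p = 7.29e-05). The steepest falls were those of Timeless, from 60.94, 61.16 and 64.65 CPM in NSC to between 3.32 and 5.38 CPM at day 4, and of its partner Tipin, from 77.55, 72.49 and 84.55 CPM to between 14.61 and 19.48 CPM. Both proteins also work at the DNA replication fork, and their fall moved with that of the proliferation markers given above. The part of dividing cells in these values was not tested.

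Widely rhythmic output genes (8 genes) showed 6 rises and 2 falls in Astrocyte, 4 rises and 3 falls in Neuron, and 6 rises and 2 falls in Oligodendrocyte, with medians of 0.81, 0.48 and 0.69. The ubiquitin protease Usp2, a common clock output, was highest in Oligodendrocyte, as Per1 was. It was at 24.11, 27.28 and 26.44 CPM in NSC, 38.18, 34.48 and 33.02 CPM in Astrocyte, 18.67, 19.36 and 22.64 CPM in Neuron, and 60.31 and 60.48 CPM in Oligodendrocyte. It was higher in Oligodendrocyte than in Neuron by 1.54 (SE 0.092, adjusted p = 1.05e-08). Ccrn4l, the older symbol of the nocturnin gene Noct, went the other way: it reached 481.03, 487.87 and 526.28 CPM in Neuron against 151.19 and 151.49 CPM in Oligodendrocyte, a log2 difference of -1.71 (adjusted p = 3.78e-10). Wee1, a cell cycle kinase under clock control, fell by 2.42 in Astrocyte, by 2.77 in Neuron and by 1.52 in Oligodendrocyte, beside the fall of the proliferation markers, whose part in it was not tested. Nampt, which limits NAD synthesis, fell by 0.51, by 0.71 and by 0.87. The output genes therefore did not share a single order of the media.

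**Figure D4:**
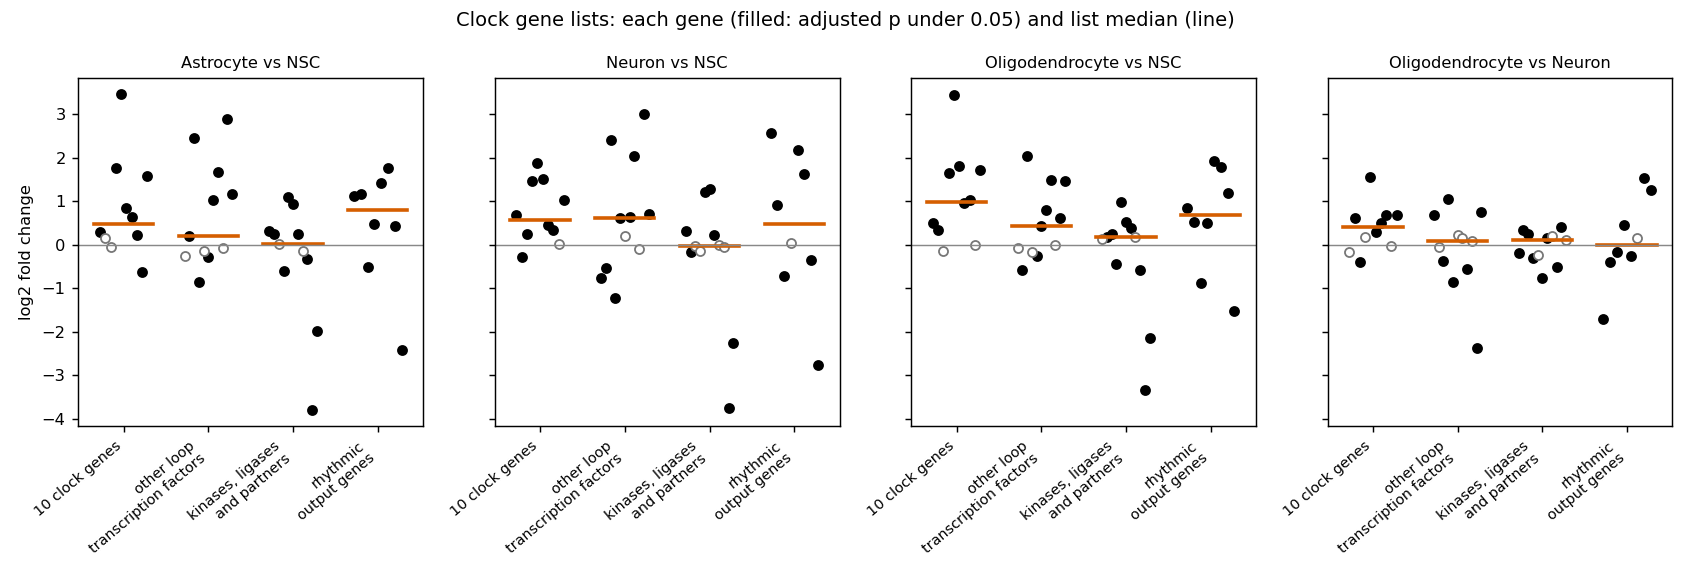
Log2 fold change (y axis) of each gene in the 10 clock genes and 3 lists of clock-related genes, for 3 comparisons with NSC and for Oligodendrocyte against Neuron, with filled points for an adjusted p under 0.05 and the list median as a line. The medians of the 10 clock genes are 0.47, 0.57, 0.99 and 0.40, and Timeless and Tipin form the low points of the kinase and ligase list against NSC.

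Glucocorticoids and the signals that induce immediate early genes can both act on Per1 and Per2 in culture. Genes that respond to either are given beside the members because the media differ in serum and supplements. Of 10 glucocorticoid response genes 7 rose and 2 fell in Astrocyte, 7 rose and 2 fell in Neuron, and 6 rose and 2 fell in Oligodendrocyte. Among all 13342 tested genes 6407, 5809 and 6412 rose in the same order. Between Astrocyte and Neuron 7 of the 10 were called lower in Astrocyte, beside 22.0% of all genes. Of these 7, Dusp1 and Nfkbia lost their call in more than 10 of 21 alternatives each. Sgk1, a kinase induced by steroid hormones, was at 12.46, 13.21 and 12.65 CPM in NSC and at 76.97, 66.5 and 78.45 CPM in Neuron. It was also raised in Oligodendrocyte, at 63.2 and 64.6 CPM, and less so in Astrocyte, at 32.91, 26.54 and 26.38 CPM. Fkbp5, a cochaperone of the glucocorticoid receptor, instead fell by 1.78, by 1.33 and by 0.65. Klf9, a factor induced by both glucocorticoids and thyroid hormone, was at 90.5 and 102.23 CPM in Oligodendrocyte and at 30.09, 25.31 and 30.45 CPM in Neuron, a log2 difference of 1.72 (SE 0.110, adjusted p = 2.03e-08). Of 8 immediate early genes 2 rose and 4 fell in Astrocyte, 2 rose and 4 fell in Neuron, and 7 fell in Oligodendrocyte, with medians of -0.67, -0.70 and -1.34. Among all 13342 tested genes 4752, 5283 and 4294 fell in the same order, with medians of 0.15, 0.06 and 0.19. Dusp1 is counted in both lists. The part of either response in the Per values was not tested.

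Genes with the most similar profile were found by the root mean square difference of log2(CPM + 1) values over the 11 libraries, each profile centred, among the 9371 other genes that averaged 10 CPM or more (9372 for Npas2). For Dbp they were Cxcr4 (0.148), a chemokine receptor gene, and Phyh (0.166), a peroxisomal enzyme gene. For Cry2 they were Agpat3 (0.0624) and Plbd2 (0.0883), and for Per3 Notch2 (0.117) and D3Ertd751e (0.124). For Per1 they were Dgke (0.0941) and Stx2 (0.0946), and for Npas2 Agpat4 (0.138) and Gstm7 (0.143). No other clock gene was among these nearest profiles. The distance compares values on the log2(CPM + 1) scale and not folds of CPM: mean CPM of Agpat4 was 9.53 in NSC and 35.1 in Oligodendrocyte, a far smaller fold than that of Npas2.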

How the data were processed

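Poly(A) RNA of 11 cultures was sequenced from stranded libraries, per the labels' protocols. The authors deposited one table of CPM values per gene, made with bcl2fastq 1.8.4, TopHat2 2.0.8, HTSeq 0.6.1, edgeR 3.2.4 and R 3.0.0 on NCBIM37 (mm9), per the submitters' processing notes; the sources used here give neither the role of each tool nor the strand setting of counting nor the hour of harvest. Whole reads could not be recovered from the CPM steps: 24.0 to 60.6% of low values came within 0.1 of a whole read, so no count test was run. All 11 libraries were fitted in limma 3.58.1 (R 4.3.3) on log2(CPM + 1) with a mean-variance trend, for the 13342 genes that reached 1 CPM in 2 libraries or more. P-values are two-sided, Benjamini-Hochberg adjusted over all tested genes and called under 0.05. The fit was tested on simulated data in which few genes changed, all of them upward in Astrocyte. Against NSC most genes are called here, a setting that the simulation did not cover. The 10 members and all gene lists were chosen with earlier results of these data known. The named genes are the 10 members, members of the lists, neighbours that overlap a member, and the 2 nearest profiles of the 5 members with the widest range of group means. CPM per kilobase used the summed exon length of GENCODE M21 protein-coding models. Alternatives changed the pseudocount (0.1 or 5), the filter, the scaling (median of gene ratios, quantiles, total of listed genes), the libraries in the fit, the variance trend and the replicate block, and left out each library in turn. Promoter windows are from RefSeq (GRCm38.p6), a later build than the table, and no coordinate was converted. Some genes of the lists are counted but not reported here by name.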

Additional observations from a re-analysis of the deposited data

Results flagged for a closer look

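Clock was called in opposite directions from NSC in the Neuron and Oligodendrocyte media, and the direct difference of Oligodendrocyte from Neuron was 0.61 on the log2(CPM + 1) scale (SE 0.131, adjusted p = 0.000994 in limma). Both Oligodendrocyte libraries, at 90 and 86.92 CPM, lay above the 3 Neuron libraries, at 67.74, 46.76 and 59.75 CPM. The difference ranged from 0.46 to 0.73 over 21 alternatives and passed in all of them, whereas the call against NSC was lost in 7 alternatives for Neuron and in 9 for Oligodendrocyte. Among all tested genes 7.78% were called in both directions over the 3 comparisons with NSC.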

How the results depend on the processing

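Over 21 alternatives the number of the 10 clock genes called ranged from 6 to 8 in Astrocyte against NSC, 8 to 9 in Neuron against NSC, 7 to 9 in Oligodendrocyte against NSC, 8 to 10 in Astrocyte against Neuron, 6 to 7 in Oligodendrocyte against Neuron and 3 to 5 in Oligodendrocyte against Astrocyte. Scaling by the median of gene ratios moved the median of all genes from 0.15 to -0.01 in Astrocyte and from 0.19 to near 0 in Oligodendrocyte against NSC, and changed 10 of 60 member results, as 9 did under quantile normalization and 6 when rescaled to the listed genes. No called value changed sign. Signs of uncalled differences changed for Clock in Astrocyte against NSC (-0.01 with median-of-ratios scaling) and for Per2 in Neuron against NSC (-0.05 with that scaling, -0.01 rescaled to the listed genes, -0.04 without NSC replicate 3 and -0.06 to 0.12 over the fits that left out 1 library, lowest without Neuron replicate 3). They also changed for Per2 in Oligodendrocyte against NSC (0.05 without NSC replicate 2 and -0.10 to 0.09 over all such fits, highest without Oligodendrocyte replicate 2), for Per2 in Oligodendrocyte against Neuron (0.05 without Neuron replicate 3 and -0.12 to 0.06 over all such fits, highest without Oligodendrocyte replicate 2) and for Dbp in Oligodendrocyte against Astrocyte (0.02 without Oligodendrocyte replicate 2). The cause was not tested. Whether the replicate numbers pair the samples could not be decided from the values. Deviations of same-numbered libraries from their group means correlated at -0.505 to 0.415 over 15 pairs (median 0.0349), of which 6 were over 0.1. Those of differently numbered libraries correlated at -0.536 to 0.541 over 30 pairs (median -0.00721), of which 7 were over 0.1. With 2 or 3 libraries per group, such correlations cannot exclude pairing. Not every library correlated best with its own number. With the replicate block 7 members were called in Oligodendrocyte against NSC and 6 in Oligodendrocyte against Neuron, as Clock (0.29, adjusted p = 0.0533) and Npas2 (0.28, adjusted p = 0.071) lost their calls, and no other member call changed. Without Oligodendrocyte replicate 1 or 2 that group has 1 library, which is then assumed to vary like the others. Depth limits Npas2 most, at 0.14 to 0.16 CPM in NSC.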
